A study of Caenorhabditis elegans with 4 samples.

Results

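Of the 5 deoxynucleotide synthesis genes of Caenorhabditis elegans examined here, 4 had a peak of the transcription factor EFL-1 in the combined list of both replicates within 500 bp of an annotated gene end, and 1 had none. Such a combined peak lay near an end of 19.7% of all protein-coding genes. The 5 genes were rnr-1 (T23G5.1) and rnr-2 (C03C10.3) on chromosome III, and dut-1 (K07A1.2), tyms-1 (Y110A7A.4) and dhfr-1 (C36B1.7) on chromosome I. They were chosen by name, as 5 of the 19971 protein-coding genes of the nuclear chromosomes in the annotation. By peak number, the peak at rnr-1 was among the strongest of the experiment, those at tyms-1 and dut-1 lay in the stronger part of the list, and that at dhfr-1 was near its weak end. The gene without a combined peak was rnr-2, which had a weaker peak at the same place in both replicates.

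Chromatin immunoprecipitation followed by sequencing was performed on hermaphrodite larvae of the first stage (L1) of strain MT10430, which carries lin-35(n745) I. All samples shared this genotype, so that no animals with intact lin-35 were at hand, and whether its loss changed a peak cannot be told from them. Their food was E. coli HB101 and their growth temperature 20 °C; the stage label adds the tag 26dC, which may be read as another temperature and whose meaning the labels do not give. Chromatin was pulled down with a rabbit polyclonal EFL-1 antibody in 2 ChIP samples, and 2 input samples of total chromatin DNA accompanied them. Whole larvae were used, so a peak cannot be assigned to a cell type.

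Deoxynucleotides are the building blocks of DNA, and cells that replicate their DNA need a steady supply of all of them. Ribonucleotide reductase makes deoxynucleotides from ribonucleotides, and thymidylate synthase, dihydrofolate reductase and dUTPase act together in the branch that makes thymidylate and keeps uracil out of DNA. In animals, genes of this group are classical targets of E2F factors, the family to which EFL-1 belongs. LIN-35, which all these animals lacked in wild-type form, is related to the retinoblastoma protein, a partner with which E2F factors repress genes.

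The deposited values were lists of peaks in WormBase WS220 coordinates, with 4966 peaks in the combined list, 22275 in replicate 1 and 22464 in replicate 2. Read depth was unknown, because the lists give no read counts, and no interval on the height of a peak could be given. The number in a peak's name was read as its rank, number 1 being the strongest, and "weak" and "strong" below refer to this number alone. The score beside it was the authors' and had no stated unit; it did not vary among the combined peaks, and 5002 replicate 1 peaks and 3810 replicate 2 peaks shared the top score of their list. Most peaks of the replicate lists had 1 fixed width, 324 bp (91.4%) in replicate 1 and 330 bp (93.7%) in replicate 2, so a peak of that width carries no measure of its extent.

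Gene positions came from an annotation of assembly WBcel235 that gives no strand. Which end of a gene is its start was therefore not known, and a peak centre within 500 bp of either annotated end was counted. Such a count can include peaks at the 3′ end of a gene. The shift between the coordinates of peaks and genes was estimated from the peaks themselves, as the mean of 2 medians, the displacement of peak centres at low-coordinate and at high-coordinate gene ends. It was -10.5 bp on chromosome I and -50.25 bp on chromosome III from the combined list. Over all chromosomes it ran from -53 to -6.5 bp. With each chromosome cut into 3 parts, and over all 3 lists, the extremes were -83.5 and 28.2 bp. These values were small beside the window of 500 bp, and neither extreme, applied to every gene, changed which of the 5 genes had a combined peak.

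**Figure D1:**
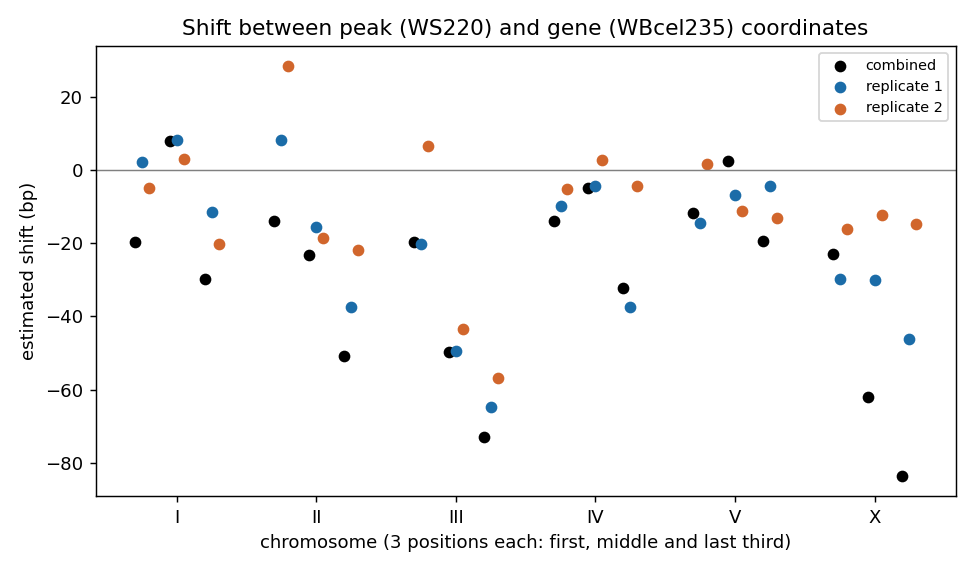
Estimated shift in bp (y axis) between peak coordinates in WS220 and gene coordinates in WBcel235, for the first, middle and last of 3 equal parts of each chromosome (x axis), with 1 point per peak list. All points lie between -83.5 and 28.2 bp, and on chromosome III the combined list moved from -19.8 bp in the first part to -73 bp in the last.

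Combined peaks lay near an end of 3925 of the 19971 protein-coding genes, or 19.7%. Counting the ends separately, 10.8% of all gene ends had one. Against this background 4 of the 5 genes, or 80%, had a combined peak. Each of the 4 had it at 1 end only; combined peaks at both ends were found at 382 of the 3925 genes, or 1.91% of all protein-coding genes. When as many of the strongest peaks of a single replicate were used, 4 of the 5 genes had one in replicate 1 (19.4% of all protein-coding genes) and 3 in replicate 2 (19.2%). With 5 genes chosen by name the count is a description, and no test was made of it. The genes and the question were also chosen with earlier results of these data known.

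**Figure D2:**
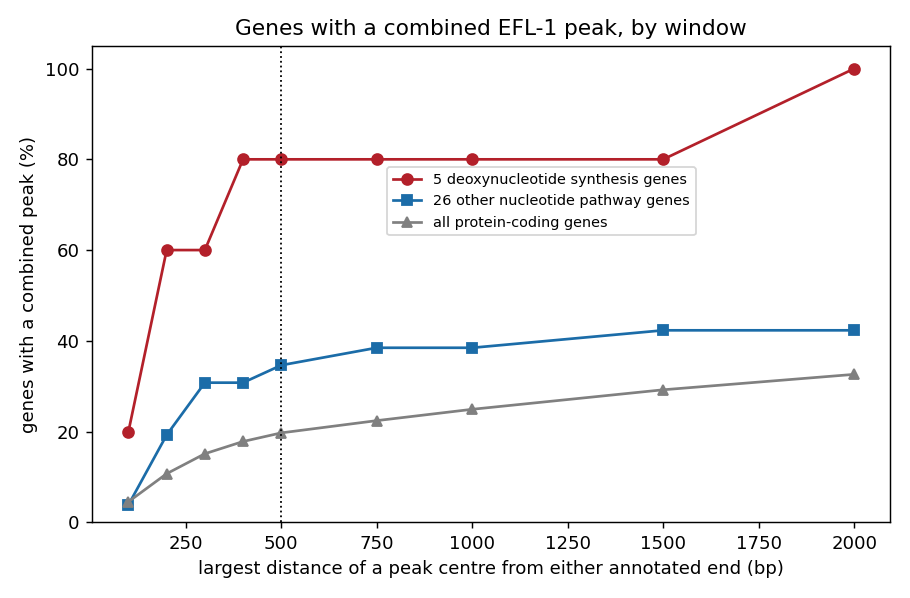
Percentage of genes (y axis) with a combined peak centre within a given distance in bp of either annotated end (x axis), for the 5 deoxynucleotide synthesis genes, 26 other nucleotide pathway genes and all protein-coding genes; the dotted line marks 500 bp. At 500 bp the 3 shares are 80%, 34.6% and 19.7%, and at 200 bp they are 60%, 19.2% and 10.7%.

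The large subunit of ribonucleotide reductase is encoded by rnr-1. Its combined peak was number 28 of 4966 and lay on chromosome III from 9228121 to 9228538 (WS220). The peak overlapping it was number 22 in replicate 1, from 9228137 to 9228522, and number 37 in replicate 2, from 9228152 to 9228498. Both replicates therefore placed it near the very top of their lists, and their centres were 4.5 bp apart. It was 418 bp wide in the combined list, above the fixed width. Its centre lay outside the gene, 79.5 bp beyond the high-coordinate end, or 129.8 bp when the shift of chromosome III as a whole was applied. The latter distance is approximate, because the estimated shift ran from -19.8 bp in the first part of this chromosome to -73 bp in the last. A combined peak with a number of 28 or lower was found at 42 of the 19971 protein-coding genes, or 0.21%. No other protein-coding gene had an end within 500 bp of the centre, the nearest being T23G5.3 at 672.5 bp. At the other end of rnr-1 the combined list had no peak; replicate 2 alone had one, number 10838.

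The small subunit of the same enzyme is encoded by rnr-2, and it was the only one of the 5 genes with no combined peak within 500 bp of either end. In both replicates a peak lay just inside the high-coordinate end of the gene. It was number 6080 in replicate 1, from 4094606 to 4094929 on chromosome III, with a score of 2.41. In replicate 2 it was number 5388, from 4094612 to 4094941, with a score of 2.01. Both scores were below the top value of their lists, and both peaks had the fixed width. The centres were 9 bp apart and lay 153.5 and 144.5 bp from the annotated end, inside the gene. The replicates thus gave the same position, with a rank far below that of rnr-1.

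Peaks of like rank were mostly left out of the combined list. Among replicate peaks that overlapped one to one, 72 pairs had numbers within 500 of those at rnr-2 in both lists, and 2 of these pairs (2.78%) overlapped a combined peak. Around the ranks of rnr-1, tyms-1 and dut-1 all of the 455, 596 and 536 such pairs did. The absence of rnr-2 from the combined list was thus shared by most pairs of its rank. Its numbers in both replicates were above 4966, the length of that list, and the list combines the same replicates. These shares are therefore a description and no independent account of the absence. The nearest combined peak to rnr-2 was number 2462, at 1677.5 bp beyond the high-coordinate end, where it lay within 500 bp of ends of C03C10.7 and rei-1. At the low-coordinate end of rnr-2 both replicates had a much weaker peak, number 18257 in replicate 1 and number 16907 in replicate 2. Between the gene and C03C10.7, a further replicate pair (numbers 11389 and 8584) lay more than 500 bp from rnr-2.

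**Figure D3:**
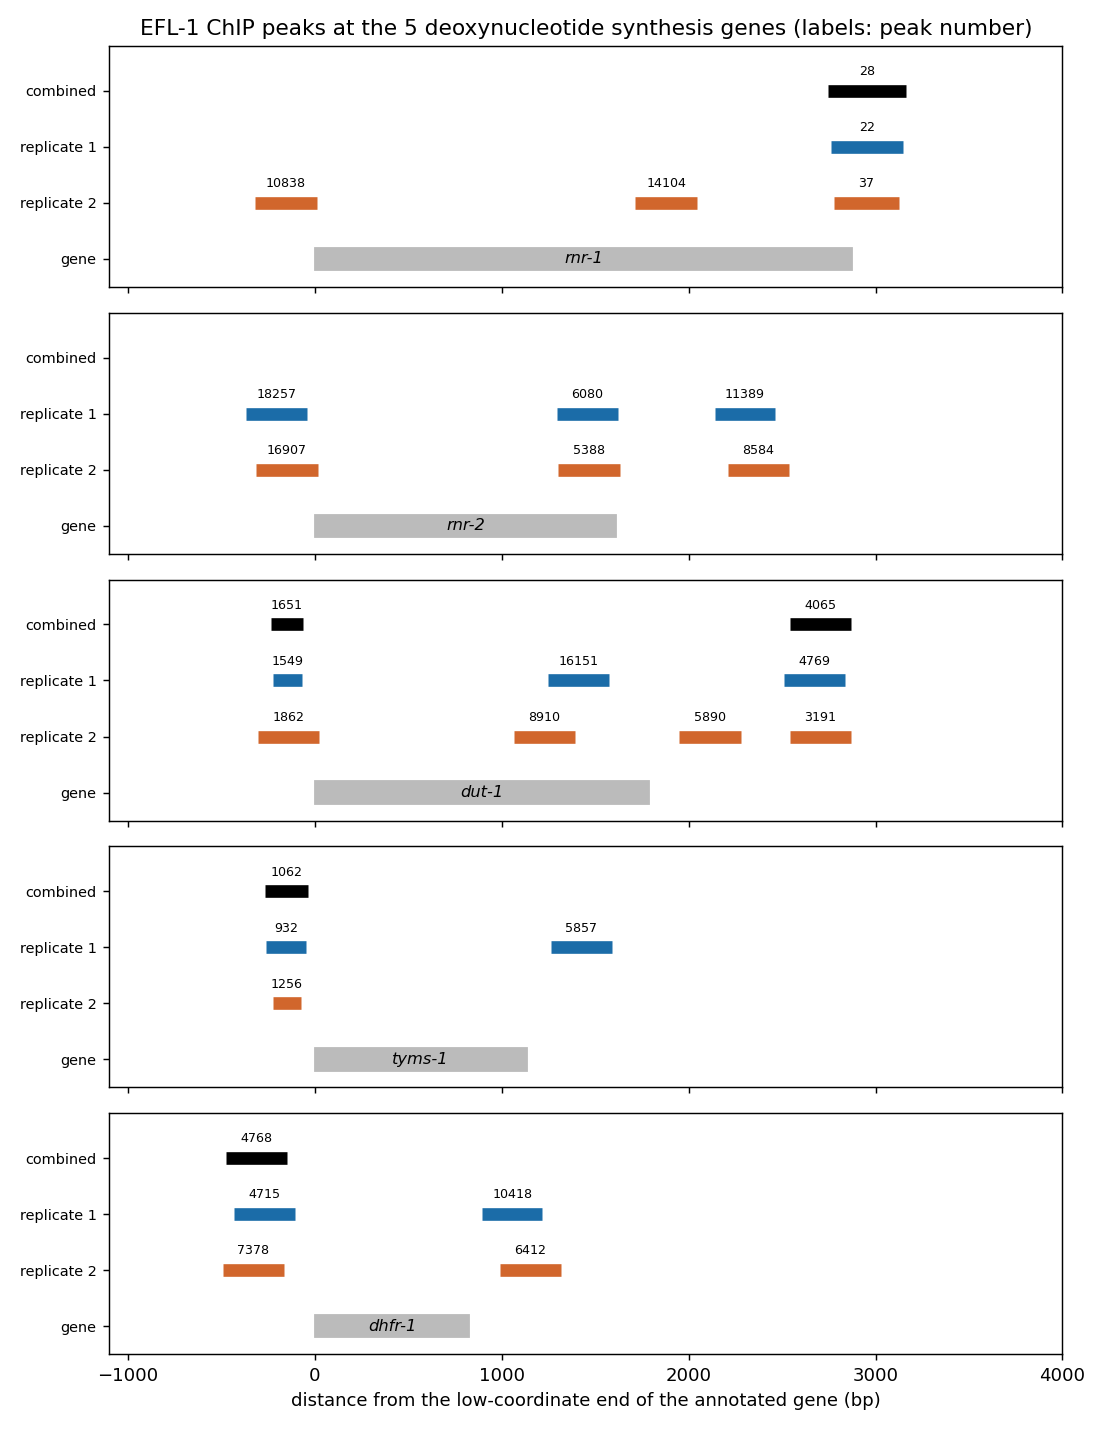
Map of each of the 5 genes (grey bar, drawn from its low-coordinate end at 0 bp; x axis in bp) with the peaks of the combined list and of both replicates within 1000 bp of the gene (bars, labelled with the peak number). Gene ends are in WBcel235 and peaks in WS220, with no shift applied. All lists show a peak within 500 bp beyond the same end of rnr-1, dut-1, tyms-1 and dhfr-1. At each of these genes at least 1 list also shows a peak beyond the other end. The gene rnr-2 has peaks in the replicate lists only.

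Thymidylate synthase, which makes thymidylate from deoxyuridylate with a folate cofactor, is encoded by tyms-1. Its combined peak was number 1062, on chromosome I from 5137984 to 5138213. The overlapping peak was number 932 in replicate 1, from 5137990 to 5138201, and number 1256 in replicate 2, from 5138027 to 5138176. The 3 intervals, 230, 212 and 150 bp wide, were all narrower than the fixed width, and the replicate centres were 6 bp apart. The centre of the combined peak lay 151.5 bp beyond the low-coordinate end of tyms-1. It was also 127.5 bp from an end of the neighbouring gene mtm-1, a myotubularin phosphatase gene, so that the peak cannot be given to tyms-1 alone. Combined peaks of this number or lower lay at 6.08% of protein-coding genes. At the other end of tyms-1 replicate 1 had a peak, number 5857, that replicate 2 lacked.

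The dUTPase gene dut-1, whose enzyme breaks down dUTP and so supplies the substrate of thymidylate synthase, had combined peak number 1651, on chromosome I from 9585184 to 9585352. In replicate 1 it was number 1549, from 9585192 to 9585347, and in replicate 2 number 1862, from 9585112 to 9585441. The replicate centres were 7 bp apart, and 8.71% of protein-coding genes had a combined peak of number 1651 or lower. The combined centre lay 149 bp beyond the low-coordinate end, and the nearest end of another protein-coding gene, K07A1.13, was 533 bp away. A second combined peak, number 4065, lay 919.5 bp beyond the other end and so outside the window. Near that other end, replicate 1 had a weak peak inside the gene, number 16151, which overlapped number 8910 of replicate 2, although the latter was centred 556.5 bp from the end and so outside the window. Replicate 2 also had number 5890, just outside the gene.

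Dihydrofolate reductase, which restores the folate that thymidylate synthase uses up, is encoded by dhfr-1, the shortest of the 5 genes at 826 bp. Its combined peak was number 4768 of 4966, on chromosome I from 8735737 to 8736066, and had the fixed width of 330 bp. The peak was number 4715 in replicate 1, from 8735783 to 8736106, with the top score. In replicate 2 it was number 7378, from 8735720 to 8736049, with a score of 0.996 against a top score of 3.88. The replicates differed more here than at the other 4 genes in position, with centres 60 bp apart, while in rank the ratio of their numbers was 1.56 at dhfr-1 and 1.68 at rnr-1. Of 59 one-to-one replicate pairs of like rank (numbers within 500 in both lists), 23 (39%) were in the combined list. The median distance between the centres of these pairs was 43 bp. Around the ranks of rnr-1, tyms-1, dut-1 and rnr-2 it was 5.5, 9, 11 and 49.5 bp. A wide distance was thus usual at the rank of dhfr-1.

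The centre of the dhfr-1 peak was 311.5 bp from the low-coordinate end of the gene and nearer, at 184.5 bp, to an end of prp-4, a gene of the pre-mRNA splicing machinery. Narrower windows of 200 and 300 bp lost dhfr-1. So did the 4966 strongest peaks of replicate 2 alone. At the other end of dhfr-1 replicate 2 had a peak of lower number, 6412, and replicate 1 had number 10418, with none in the combined list. In replicate 2, then, the stronger of its 2 peaks lay at the end without a combined peak.

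**Figure D4:**
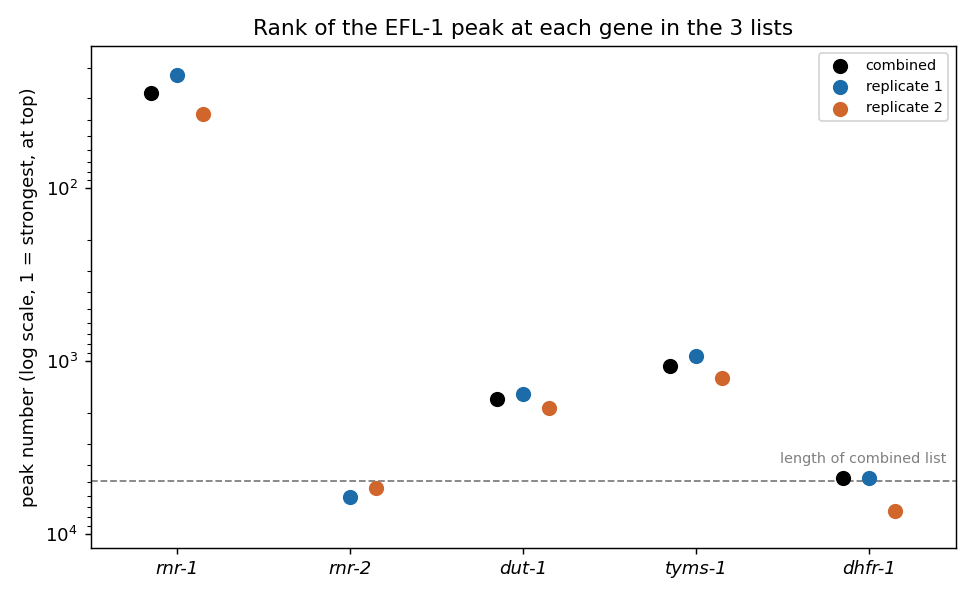
Peak number (y axis, log scale, strongest at the top) of the peak at each of the 5 genes (x axis) in the combined list and of the replicate peaks overlapping it; for rnr-2, which has no combined peak, the replicate pair at its high-coordinate end is shown. The dashed line marks the length of the combined list, 4966 peaks. The genes spread from 28 at rnr-1 to 4768 at dhfr-1, and only the points of rnr-2 and the replicate 2 point of dhfr-1 fall below the line.

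By peak number the order was the same in both lists from rnr-1 through tyms-1 to dut-1. The numbers were 22, 932 and 1549 in replicate 1 and 37, 1256 and 1862 in replicate 2. The steps between these genes were larger than the differences between replicates at each. The order of the last 2 genes was not fixed: dhfr-1 was ahead of rnr-2 in replicate 1 (4715 against 6080), and rnr-2 was ahead in replicate 2 (5388 against 7378). The mean of both numbers was 6046.5 for dhfr-1, which was in the combined list, and 5734 for rnr-2, which was not. The presence of one and the absence of the other thus marks no difference in mean rank that exceeds the spread of the replicates.

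Each of the 5 genes had a peak of some rank near an end in both replicates. This holds for 33.3% of all protein-coding genes, while 44.3% had one in replicate 1 and 44.9% in replicate 2. Peaks of some rank at both ends were found at 4 of the 5 genes in replicate 1 (all but rnr-1), against 14.2% of all protein-coding genes, and at 4 of the 5 in replicate 2 (all but tyms-1), against 13.6%. The weaker peak of each such gene was numbered from 5857 to 18257 and overlapped no combined peak, except at dhfr-1 in replicate 2, where the weaker one, number 7378, was the one that did. The median combined peak number of the 4 genes was 1356.5, against 1893 over the 3925 protein-coding genes with a combined peak, and their range from 28 to 4768 covered nearly the whole list. At all 4 genes the centre lay outside the annotated gene, as it did at 89.8% of the 3925. The distances from the nearer end, from 79.5 to 311.5 bp, can be set beside a median of 194.5 bp and quartiles of 114.5 and 301 bp over the same 3925 genes. The distance at rnr-1 was below the lower quartile, that at dhfr-1 above the upper, and those at dut-1 and tyms-1 between them. With the shift of each chromosome applied throughout, the quartiles were 116.2 and 297.5 bp; rnr-1, at 129.8 bp, then lay between them, and dhfr-1, at 301 bp, was still just above.

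By peak number, the genes most like each of the 4 were those next to it in the combined list. For rnr-1 these were let-858 (number 27) and rom-4 (number 29). For tyms-1 they were erh-1 and lpd-9, which share peak 1060, and ets-6 (1065). Next to dut-1 stood fbxa-90 (1650) and the neighbours sir-2.1 and pges-2, which share peak 1652. Next to dhfr-1 stood bath-39 (4766) and clc-20 (4769). In replicates 1 and 2 the numbers were 34 and 27 at let-858 and 44 and 25 at rom-4, beside 22 and 37 at rnr-1. At dhfr-1 the replicate 2 number, 7378, was higher than at both genes flanking it, with 4109 at bath-39 and 4904 at clc-20.

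Other enzymes that feed or use nucleotide pools were examined as a list of 26 genes, of which 9 (34.6%) had a combined peak near an end, against 19.7% of all protein-coding genes. The list was drawn up with earlier results of these data known, and its share was not tested. The median peak number of the 9 was 1114, and the range 57 to 4270. In both replicates 16 of the 26 had a peak of some rank, against 33.3% of all protein-coding genes. In replicate 1 alone the count was 20 of the 26, against 44.3% of all, and in replicate 2 it was 19, against 44.9%. A peak in a single replicate only was found at 7, and 3 (trx-1, trx-2 and pfas-1) had none in either. No share over all genes was computed for these last counts, so they do not tell whether the list differs from other genes. Of the 9 combined peaks, 6 also lay within 500 bp of an end of another protein-coding gene and cannot be given to the listed gene alone: cert-1 at ndk-1, ZK643.5 at ZK643.2, pus-1 at ctps-1, cap-2 at gmps-1, ribo-1 at T22D1.3 and C05D11.13 at mel-32. How often combined peaks were shared in this way over all genes was not counted.

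Pyrimidine synthesis genes made up 3 of the 9. The strongest was at umps-1, which encodes the enzyme of the last steps to UMP: number 57 in the combined list, 47 in replicate 1 and 66 in replicate 2, with the centre 256 bp beyond the high-coordinate end. At ctps-1, which encodes CTP synthase, the numbers were 1114, 1215 and 1111 in the same order. At pyr-1, which encodes the multifunctional enzyme of the first steps, they were 3594, 3804 and 3981. The remaining pyrimidine synthesis gene, dhod-1, had no combined peak, although its lowest numbers were 5936 and 5083 in the replicates.

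Among genes of the later steps to deoxynucleotide triphosphates, ndk-1, a nucleoside diphosphate kinase gene, had combined peak 122 (162 in replicate 1 and 101 in replicate 2), centred 25.5 bp from its end. ZK643.2, a gene of the list known by its sequence name, had peak 1870 (1787 and 2185). The thymidylate kinase gene dtmk-1, which acts directly after thymidylate synthase, had none in the combined list; its replicate numbers were 8579 and 5664. Neither cytidine deaminase gene (cdd-1, cdd-2) had a combined peak, nor did sahd-1, the SAMHD1 homologue, near an end. A peak inside sahd-1, number 2718, lay 2952.5 bp from the nearer end.

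Among purine synthesis genes, gmps-1, which encodes GMP synthase, had combined peak 149 (132 in replicate 1 and 168 in replicate 2). T22D1.3, also known by its sequence name, had peak 4270 (5562 and 3410). A further 6 purine genes, ppat-1, pfas-1, paic-1, adsl-1, atic-1 and adss-1, had no combined peak in the window. A combined peak inside adss-1, number 4368, lay 2069.5 bp from the nearer end. For ppat-1 the call depended on the window, since combined peak 2317 was centred 509.5 bp from its end, just outside.

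Of the folate genes, mel-32, which encodes serine hydroxymethyltransferase, had combined peak 741 (866 in replicate 1 and 619 in replicate 2). Its centre lay 143.5 bp inside the gene's high-coordinate end, or 93.2 bp with the shift applied. The genes dao-3, mthf-1 and folt-1 had none, although dao-3 had lowest numbers of 4955 and 5061 in the replicates, close to the length of the combined list. Of the thioredoxin system, which can supply electrons to ribonucleotide reductase, trxr-1 had peak 2112 (1953 and 2257), and trx-1, trx-2 and trxr-2 had none in the combined list.

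**Figure D5:**
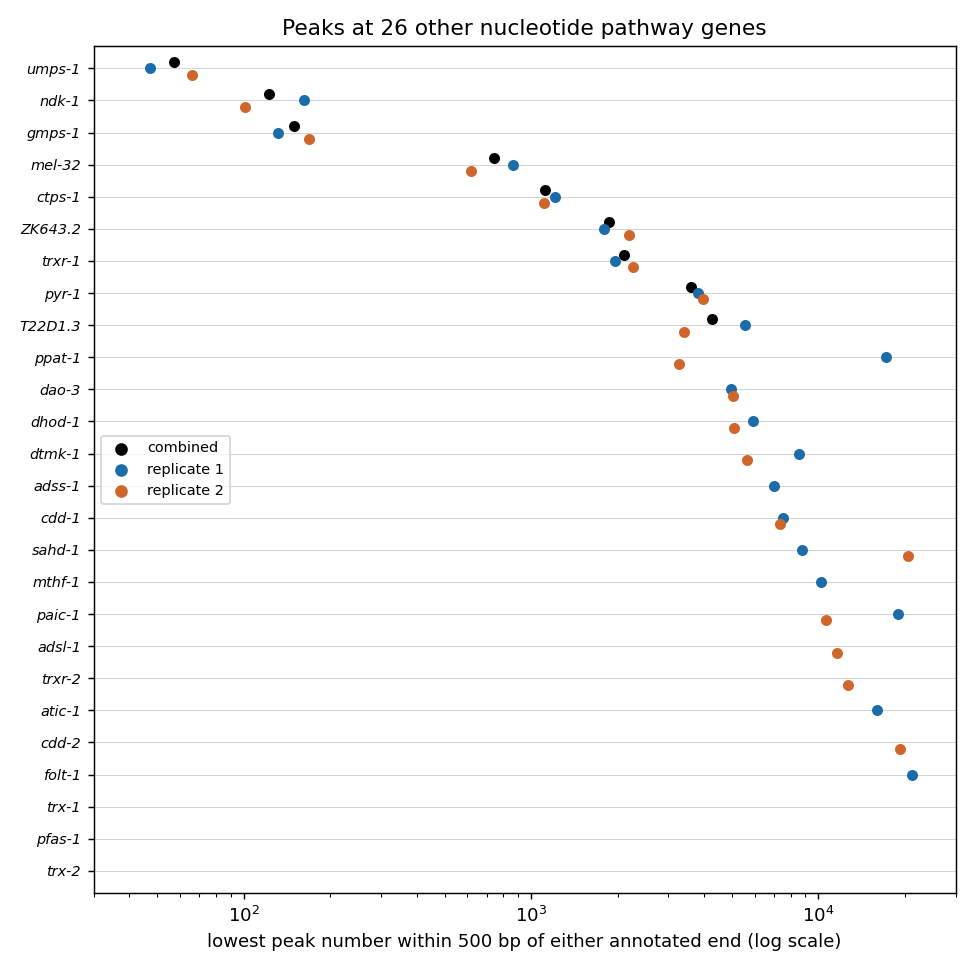
Lowest peak number within 500 bp of either annotated end (x axis, log scale) at 26 other nucleotide pathway genes (y axis) in all 3 lists; a missing point means no peak in that list. The 9 genes with a combined peak run from 57 at umps-1 to 4270 at T22D1.3, and 3 genes have no point.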

How the data were processed

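EFL-1 ChIP-seq peak lists of 2 ChIP replicates and 1 combined list were used; the 2 input samples were not analysed here. Per the file headers, positions are in WormBase WS220, and the source field of the lines names SPP and IDR. Tool versions, cut-offs, aligner and the role of the input: not given in the sources used here. A deposited peak carries a score without a stated unit. Replicates are numbered as in the sample titles, and nothing says that they came from separate cultures.

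In Python 3.11.15 (numpy 2.4.6, pandas 2.3.3, matplotlib 3.10.9), peak centres were matched to ends of RefSeq genes of assembly WBcel235, which are not in the peaks' build. The plan used gene starts. As strand was not at hand, both ends were used, and the shift between builds was estimated by end in place of strand. Of several peaks within 500 bp the lowest number was taken, and a replicate peak belonged to a combined peak when they overlapped by at least 1 bp. All 31 listed genes were matched, 30 by sequence name and 1, dhod-1, by symbol alone; the sequence name B0286.3 had been listed under another symbol, and paic-1 was taken from the annotation. The 5 genes and the list of 26 were chosen with earlier results of these data known. Named genes were all 5, every gene of the list with a combined peak, genes sharing a peak with one of the 5, and the neighbours in rank; genes sharing a peak with a listed gene, and genes of the list without a combined peak, were named after their values were seen. The peak matching and the shift were run on simulated peaks as a check of the code. The planted peaks lay well inside the window. The shift was accepted within a tolerance as large as the planted shift itself. How accurate the shift estimates are was therefore not measured. No p-value was computed, because the genes were chosen with earlier results known and 2 replicates allow no test per gene. The lists also hold no read counts. The planned search for E2F motifs was not run.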

Additional observations from a re-analysis of the deposited data

How the results depend on the processing

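The number of the 5 genes with a combined peak was 4. It stayed at 3 or 4 with windows of 200 and 1000 bp, overlap of the peak interval, and gene ends moved by the estimated shift. The same held for the stronger 50% of the combined list and for the 4966 strongest peaks of each replicate alone (3 to 4). The gene lost under these settings was dhfr-1 each time (200 bp, stronger 50%, strongest peaks of replicate 2), and rnr-2 gained no peak. In the full list of each replicate, all 5 genes had a peak of some rank. So did 44.3% of all protein-coding genes in replicate 1 and 44.9% in replicate 2. The extreme shifts and further windows were added after the data were seen. The shifts left the 4 genes as they were. A window of 300 bp also lost dhfr-1, leaving 3 of the 5 genes, against 15.1% of all protein-coding genes. One of 400 bp kept dhfr-1, with 4 of the 5 genes against 17.8%. At 100 bp 1 of the 5 genes (rnr-1), 1 of the 26 pathway genes and 903 of all protein-coding genes (4.52%) had a peak. At 2000 bp all 5 genes did, rnr-2 through peak 2462, with 6509 of all (32.6%). With a window of 200 bp, 5 of the 26 pathway genes and 2140 of all protein-coding genes had a peak, and with the stronger 50% of the list 2426 of all did. Narrower windows and shorter lists admit fewer peaks by construction. The 4966 strongest peaks of each replicate alone gave 9 to 10 pathway genes and 3837 to 3881 of all genes. The nearest peak in the window was the strongest one at all 4 genes. No paired analysis was possible because no result compares groups of samples and the input samples, numbered alike, were not used here. The alternative E2F motif was not run. Without read depth or strand, neither peak height nor the end that is the start can be given.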
